A study of Mus with 10 samples.

Results

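The insulin-like growth factor genes and their binding proteins were followed as 9 genes in mouse skin: the ligands Igf1 and Igf2, the receptor Igf1r, and the binding proteins Igfbp2, Igfbp3, Igfbp4, Igfbp5, Igfbp6 and Igfbp7. They were taken by symbol from the 22180 genes of the deposited table that had 1 symbol in the platform annotation. All 9 were found, each with 1 probe set, and no filter on dim signal was applied. RNA came from skin of female BALB/c mice aged 7 to 8 weeks, on 10 Affymetrix gene arrays: 2 control arrays, 4 labelled PUVA 3D and 4 labelled PUVA 7D. PUVA is the light-activated DNA crosslinker psoralen followed by UVA light. Per the labels, psoralen was given on the skin with UVA at 0.25 J/cm2, 2 times a week for 2 weeks, with a gap of 3 or 7 days before imiquimod, whose topical use models psoriasis in mice. The labels state no gap for controls. Whether the skin put on the arrays had itself received imiquimod, and what the 2 controls received, is not stated, so no comparison is described as with or without the drug.

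IGF-I and IGF-II are secreted hormones that signal through the IGF-I receptor, a tyrosine kinase, to the PI3K-AKT and MAP kinase pathways and favour growth and survival. In tissue most of the ligand is held by binding proteins, which store it, keep it from the receptor or deliver it when proteases cut them. In skin, dermal fibroblasts are a main source of IGF-I, while epidermal cells carry the receptor, and several binding proteins are among the factors secreted by senescent cells.

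The medians of the 10 arrays ran from 5.83 to 5.86 (log2). Of 10 keratinocyte markers 9 were measured, with a list mean between 11.50 and 11.78 on every array. Skeletal muscle markers had list means about as high, running from 11.10 to 11.62 within the 3-day group alone. A high list mean thus does not identify the tissue, and the skin label was not checked further. The controls stood far apart in hair follicle markers, with list means of 6.48 in control replicate 1 and 8.19 in control replicate 2, against 5.67 to 6.08 on the 8 PUVA arrays. Values against control are therefore also given without each control where that matters, though not for marker lists. The labels do not state that each array is a separate animal, so the spread behind every p-value may be partly or wholly technical. Signals of different genes come from different probe sets and were not ranked against each other.

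The first comparison asks how the 3-day group differed from control skin. Igfbp6, a binding protein with a preference for IGF-II, stood 1.70-fold higher than in controls, and Igfbp5, a binding protein that also attaches to extracellular matrix, 1.28-fold higher. The ligands Igf1 and Igf2 each stood 1.26-fold higher. In limma, with Benjamini-Hochberg adjustment over all 22180 genes, none of the 9 passed an adjusted p of 0.05, and 1 gene in all did (0.00451% of those tested). At an unadjusted p under 0.05, 2 of the 9 were higher, against 5.67% of all genes, and 0 were lower, against 4.07%. The count of higher genes was 1 without either control, 3 without 3-day replicate 2 and 4 without 3-day replicate 3. Without control replicate 1 the genes past the adjusted threshold numbered 182, with none of the 9 among them. The 3-day arrays lay wholly above both controls for 4 of the 9, against 9.52% of all genes, and below both for 0, against 7.89%. Against control replicate 1 alone, 6 of the 9 lay wholly above. Lying above 1 control is easier than lying above 2, and the share over all genes was not computed for that setting. The median log2 difference of the 9 was 0.29, beside 0.0023 over all genes.

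**Figure D1:**
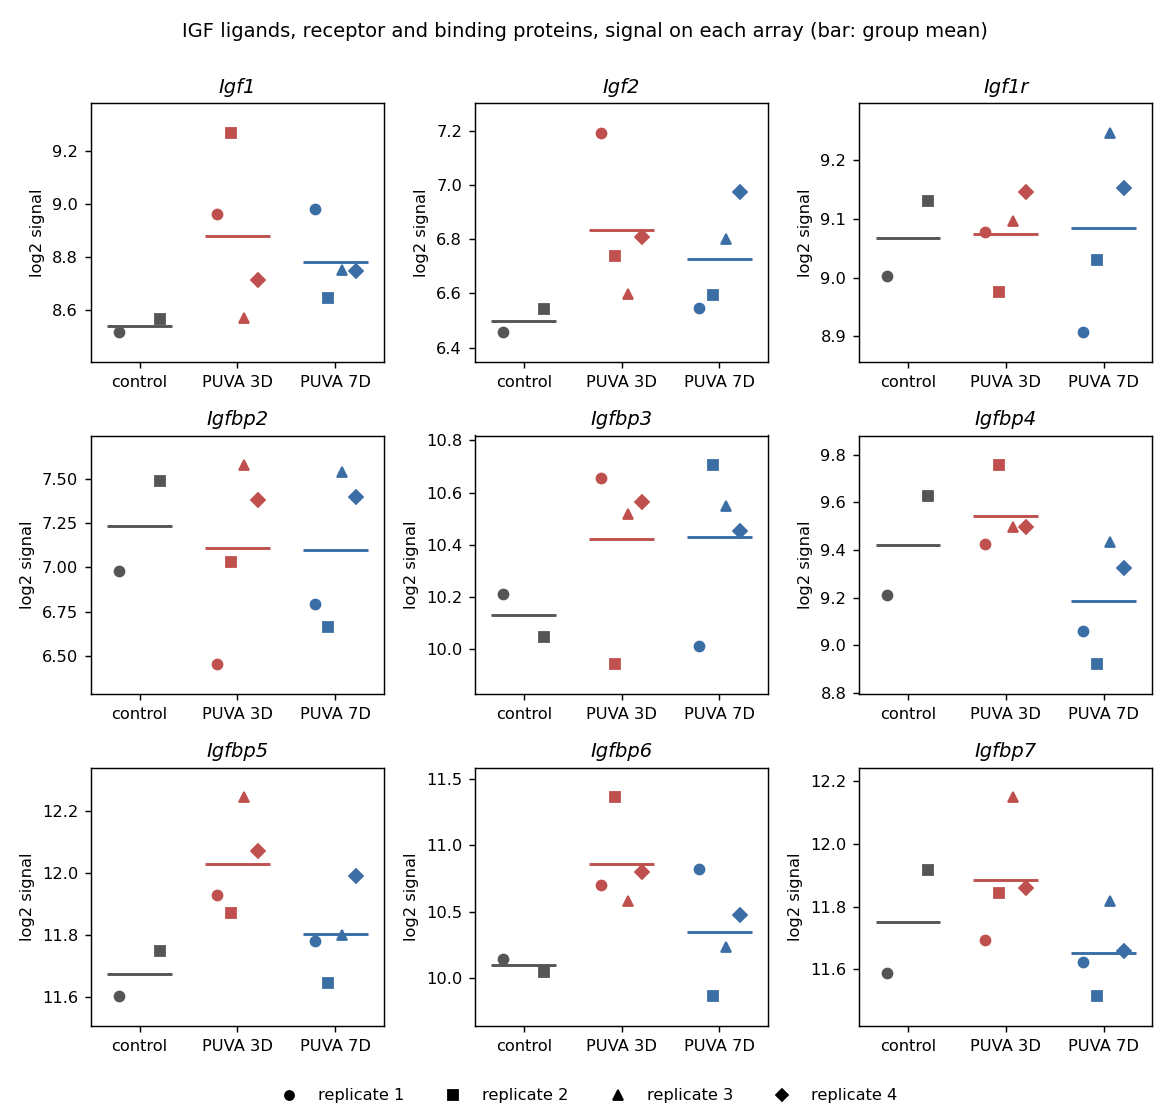
Signal of the 9 genes on each of the 10 arrays, on the log2 scale (vertical axes, scaled per gene), by group (horizontal axes). Points are arrays, marker shapes give the replicate number, which pairs nothing across groups, and bars are group means. All 4 PUVA 3D arrays lie above both controls for Igf1, Igf2, Igfbp5 and Igfbp6.

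Among the ligands, Igf1 read 8.52 and 8.57 on the controls and 8.97, 9.27, 8.57 and 8.71 on 3-day replicates 1 to 4. Replicate 2 was the highest and replicate 3 lay only 0.0039 above the higher control, so the groups were apart by almost nothing. The log2 difference was 0.34 ± 0.17 (SE), with an adjusted p of 0.557 in limma and a 95% interval of -0.038 to 0.71, and it was 0.21 without replicate 2. Igf2, the fetal growth factor expressed from the paternal allele, read 6.46 and 6.54 on the controls and 7.19, 6.74, 6.60 and 6.81 on the 3-day arrays. Here replicate 1 was the highest, and the gap to the controls was 0.057. Its log2 difference was 0.33 ± 0.16 (SE), with an adjusted p of 0.544 in limma, and also 0.21 without replicate 1.

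The receptor gene Igf1r stayed within a narrow band, at 9.003 and 9.131 on the controls and 9.08, 8.97, 9.10 and 9.15 on the 3-day arrays. The groups overlapped, with a log2 difference of 0.0070 ± 0.10 (SE) and a 95% interval of -0.22 to 0.24. That interval leaves room for a difference of either sign. Over all 10 arrays its SD was 0.10, in the lower part of all genes (percentile 21.6), whereas that of Igfbp6 was 0.45 (percentile 98) and that of Igfbp2 0.40 (percentile 97.0).

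Of the binding proteins, Igfbp6 had the widest separation from controls. It read 10.15 and 10.05 on the controls and 10.70, 11.36, 10.58 and 10.80 on the 3-day arrays, with a gap of 0.437 between the groups. The log2 difference was 0.77 ± 0.25 (SE), with an adjusted p of 0.397 in limma. Replicate 2, again the highest, carried part of this, and without it the difference was 0.60. Igfbp5 read 11.60 and 11.75 on the controls and 11.93, 11.87, 12.24 and 12.07 on the 3-day arrays, here with replicate 3 highest. Its groups were 0.126 apart, with a log2 difference of 0.36 ± 0.12 (SE) for which limma gave an adjusted p of 0.423.

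The remaining binding proteins overlapped between the 3-day and control arrays. Igfbp3, the main carrier of IGFs in blood, read 10.21 and 10.05 on the controls and 10.65, 9.94, 10.52 and 10.56 on the 3-day arrays. Replicate 2 lay below both controls and the other 3 arrays above, and the log2 difference was 0.29 ± 0.22 (SE), with an adjusted p of 0.722 in limma, or 0.45 without that array. Igfbp4, which blocks IGF action until the protease PAPP-A cuts it, and Igfbp7, a related protein with weak IGF binding, had differences of 0.12 ± 0.16 and 0.13 ± 0.14 (SE). Both depended on the controls in sign: without control replicate 1 they were -0.083 and -0.030, and without control replicate 2 they were 0.33 and 0.30. Single 3-day arrays mattered as well: without replicate 2 that of Igfbp4 was 0.054, and without replicate 3 that of Igfbp7 was 0.047. Igfbp2, a binding protein made in many fetal tissues, ranged from 6.45 to 7.58 within the 3-day group alone. Its difference of -0.12 ± 0.33 (SE) turned to 0.13 without control replicate 2 and to 0.096 without 3-day replicate 1.

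**Figure D2:**
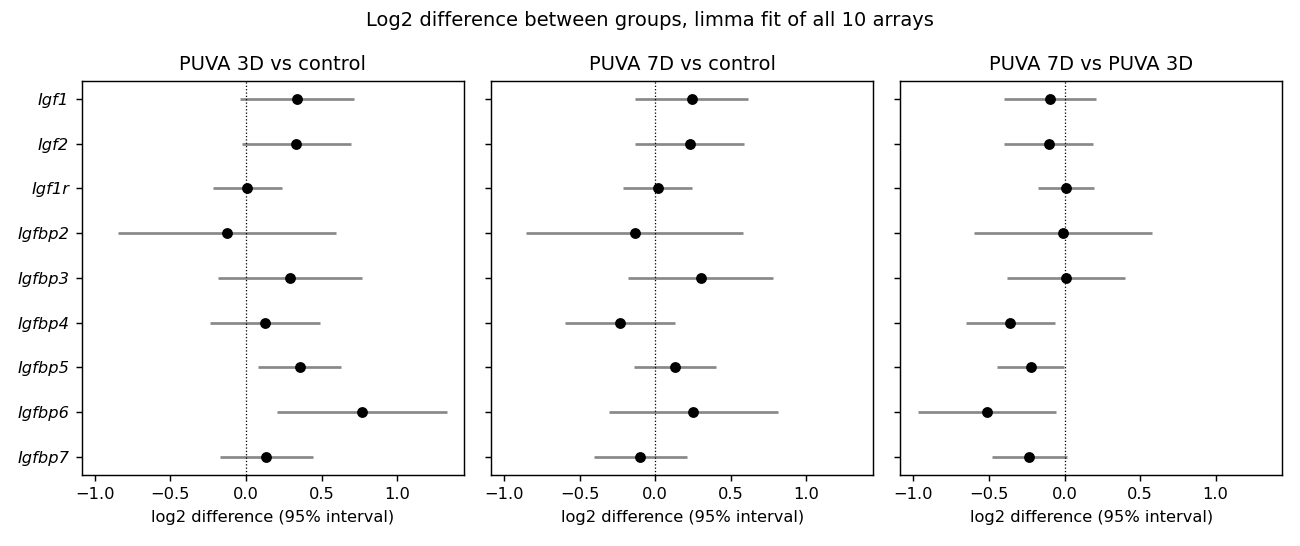
Log2 difference of the 9 genes (horizontal axes) in the 3 comparisons, from the limma fit of all 10 arrays. Points are differences of group means and lines 95% intervals of the moderated fit. The interval lies above 0 for Igfbp5 and Igfbp6 in PUVA 3D against control, and below 0 for Igfbp4, Igfbp5 and Igfbp6 in PUVA 7D against PUVA 3D, all before adjustment for the 22180 genes tested.

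Marker genes of other cell types differed between the same groups. All 9 measured macrophage markers of 10 lay higher in the 3-day group, with list means of 9.51 to 9.70 on the controls and 9.72 to 10.57 on the 3-day arrays. All 13 measured fibroblast markers of 14 did as well, with means of 10.14 to 10.62 and 10.55 to 11.16. Endothelial markers had means of 8.20 to 8.26 and 8.46 to 8.56, with 10 of 10 higher. Of the macrophage, fibroblast and endothelial markers 5, 7 and 4 were higher at an unadjusted p under 0.05, against 5.67% of all genes. Over all 22180 genes, 11225 lay above 0 and 10955 below. Schwann cell markers lay higher in 4 of 5, 3 of them with an unadjusted p under 0.05, against 5.67% of all genes. Their means were 7.15 to 7.25 and 7.45 to 7.64. Other lists lay lower in the 3-day group: hair follicle markers in 17 of 17, cell cycle genes in 14 of 14 and adipocyte markers in 9 of 9. Of these, 12, 6 and 1 had an unadjusted p under 0.05, against 4.07% of all genes lower. Melanocyte markers lay lower in 6 of 8, 2 of them at that threshold, and dermal papilla markers in 7 of 10, 0 of them. Melanocyte means overlapped, at 6.38 and 7.55 on the controls and 6.08 to 6.84 at 3 days. Cell cycle means were 7.49 and 8.15 on the controls and 7.399 to 7.498 on the 3-day arrays, and adipocyte means 10.29 and 10.15 against 9.84 to 10.20, so both overlapped. The lowest single values were 7.66 in the macrophage list (C1qc) and 7.81 in the fibroblast list (Col5a1), well above the lower quartile of array signals (4.17 to 4.23). The part of such cells in the values of the 9 genes was not tested. In bulk skin, fewer cells of a type and less RNA per cell cannot be told apart.

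The second comparison asks how the 7-day group differed from control skin. The ligands were the only 2 of the 9 whose 7-day arrays all lay above both controls, against 8.56% of all genes, and 0 lay wholly below, against 5.85%. Igf1 stood 1.18-fold and Igf2 1.17-fold higher, while Igfbp3 lay at 1.23-fold and Igfbp6 at 1.19-fold with overlapping arrays. No gene of 22180 passed in limma (0%), where 713 higher and 594 lower genes had an unadjusted p under 0.05. Without control replicate 1 the genes past the adjusted threshold numbered 217, with none of the 9 among them. At the unadjusted threshold 0 of the 9 were higher, against 3.21% of all genes, and 0 were lower, against 2.68%. The median log2 difference of the 9 was 0.13, beside 0.015 over all genes. The comparison uses the same 2 controls as the first, so the values of both are set side by side and are not independent.

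Igf1 read 8.98, 8.65, 8.75 and 8.75 on 7-day replicates 1 to 4, with replicate 1 highest and a gap of 0.080 to the controls. Its log2 difference was 0.24 ± 0.17 (SE), with an adjusted p of 0.942 in limma. Igf2 read 6.55, 6.59, 6.80 and 6.97, and its lowest array lay 0.0043 above the higher control. Its log2 difference was 0.23 ± 0.16 (SE), with an adjusted p of 0.944 in limma, and it was 0.15 without 7-day replicate 4. For both ligands the order of group means was control, 7-day, 3-day, and the 7-day and 3-day arrays overlapped.

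Igfbp6 spread widely at 7 days, at 10.82, 9.86, 10.24 and 10.47, so that replicate 2 lay below both controls and the others above. The log2 difference was 0.25 ± 0.25 (SE), with an adjusted p of 0.96 in limma, and it ranged from 0.096 without 7-day replicate 1 to 0.41 without 7-day replicate 2. Igfbp5, at 11.78, 11.64, 11.80 and 11.99, and Igfbp3, at 10.01, 10.70, 10.55 and 10.45, each had 3 arrays above both controls and 1 among or below them. The log2 difference of Igfbp3 was 0.30 ± 0.22 (SE), with an adjusted p of 0.944 in limma. That of Igfbp5 was 0.13 ± 0.12 (SE), with an adjusted p of 0.958 in limma, and ranged from 0.057 without control replicate 1 to 0.20 without control replicate 2. Without 7-day replicate 2, the lowest array for Igfbp5 and Igfbp6, 4 of the 9 genes lay wholly above the controls. Without 7-day replicate 1 or control replicate 2 the count was 3. Fewer arrays make lying apart easier, and the share over all genes was not computed for these settings. Igf1r read 8.91, 9.03, 9.25 and 9.15 and spanned the controls, with a log2 difference of 0.017 ± 0.10 (SE). Igfbp4 had -0.23 ± 0.16 (SE), which was -0.027 without control replicate 2 and -0.44 without control replicate 1. Igfbp7 had -0.098 ± 0.14 and Igfbp2 -0.14 ± 0.33 (SE), and both turned positive without control replicate 2, at 0.066 and 0.12.

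Marker lists also differed between the 7-day and control arrays. Cell cycle genes lay lower at 7 days in 14 of 14, 13 of them with an unadjusted p under 0.05, against 2.68% of all genes lower. Their list means were 7.22 to 7.41 against 7.49 and 8.15 on the controls, so control replicate 1 lay much nearer to the 7-day arrays. Hair follicle markers lay lower in 16 of 17, 10 of them at that threshold. Melanocyte markers did in 6 of 8, 5 of them at that threshold, and dermal papilla markers in 9 of 10, 3 of them. Schwann cell markers lay higher in 5 of 5, 2 of them at that threshold, against 3.21% of all genes. Their means were 7.26 to 7.55 against 7.15 to 7.25 on the controls. Macrophage markers lay higher in 9 of 9, with means of 9.62 to 10.08 against 9.51 to 9.70, and endothelial markers in 10 of 10, with means of 8.35 to 8.48 against 8.20 to 8.26. Of these macrophage and endothelial markers 0 and 1 were higher at that threshold. Fibroblast markers lay lower in 9 of 13, 0 of them at that threshold. Over all 22180 genes, 12194 lay above 0 and 9985 below. The part of any of these in the values of the 9 genes was not tested.

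The third comparison sets the 7-day against the 3-day group and does not use the controls as a reference. Igfbp6 (1.43-fold), Igfbp4 (1.28-fold) and Igfbp5 (1.17-fold) stood lower at 7 days, each with an unadjusted p under 0.05. That is 3 of the 9 lower, against 4.43% of all genes, and 0 higher, against 5.33%. None of the 9 passed after adjustment in limma, where 2 genes did (0.00902%), a count that ran from 0 without 3-day replicate 4 or 7-day replicate 1 to 10 without 3-day replicate 1. For none of the 9 were the 4 arrays of each group fully apart, against 2.28% of all genes apart downward and 2.95% upward. The median log2 difference of the 9 was -0.11, beside 0.0095 over all genes.

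For Igfbp4 the 3-day arrays read 9.42, 9.76, 9.50 and 9.50 and the 7-day arrays 9.06, 8.92, 9.43 and 9.33. Only 7-day replicate 3 reached into the 3-day range, just above 3-day replicate 1. The log2 difference was -0.36 ± 0.13 (SE), and limma gave an adjusted p of 0.457. For Igfbp6, given above array by array, 7-day replicate 1 lay among the 3-day values and the other 3 below them all. Its log2 difference was -0.51 ± 0.21 (SE), with an adjusted p of 0.48 in limma, and -0.35 without 3-day replicate 2. Igfbp5 had -0.23 ± 0.10 (SE), an adjusted p of 0.508 in limma, and 7-day replicate 4 within the 3-day range.

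Igfbp7 read 11.69, 11.84, 12.15 and 11.86 on the 3-day arrays and 11.62, 11.51, 11.82 and 11.66 on the 7-day arrays. The groups overlapped, and the log2 difference was -0.23 ± 0.11 (SE), with an adjusted p of 0.54 in limma, or -0.15 without 3-day replicate 3. For the ligands the differences were -0.098 ± 0.14 (Igf1) and -0.11 ± 0.13 (Igf2), with 95% intervals of -0.40 to 0.21 and -0.40 to 0.19. Each of these 2 differences rested on 1 high 3-day array: without replicate 2 that of Igf1 was 0.032, and without replicate 1 that of Igf2 was 0.014. Igf1r, Igfbp2 and Igfbp3 had differences of 0.010 ± 0.084, -0.013 ± 0.27 and 0.0089 ± 0.18 (SE), and the interval for Igfbp2, -0.60 to 0.58, was the widest of the 9. Counts depended on single arrays: without 7-day replicate 2 the number of the 9 lower at an unadjusted p under 0.05 was 0, and without 3-day replicate 2 or 7-day replicate 1 it was 1. Fibroblast markers lay lower at 7 days in 13 of 13, with list means of 10.05 to 10.44 against 10.55 to 11.16. At an unadjusted p under 0.05, 8 of them were lower, against 4.43% of all genes. Macrophage markers did in 8 of 9, 3 of them at that threshold, with means of 9.62 to 10.08 against 9.72 to 10.57. Cell cycle (13 of 14), endothelial (9 of 10) and Schwann cell markers (4 of 5) also lay lower, 0, 2 and 2 of them at that threshold. Keratinocyte and skeletal muscle markers each lay higher in 8 of 9. Over all 22180 genes, 10378 lay below 0. The part of any of these lists in the values above was not tested.

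**Figure D3:**
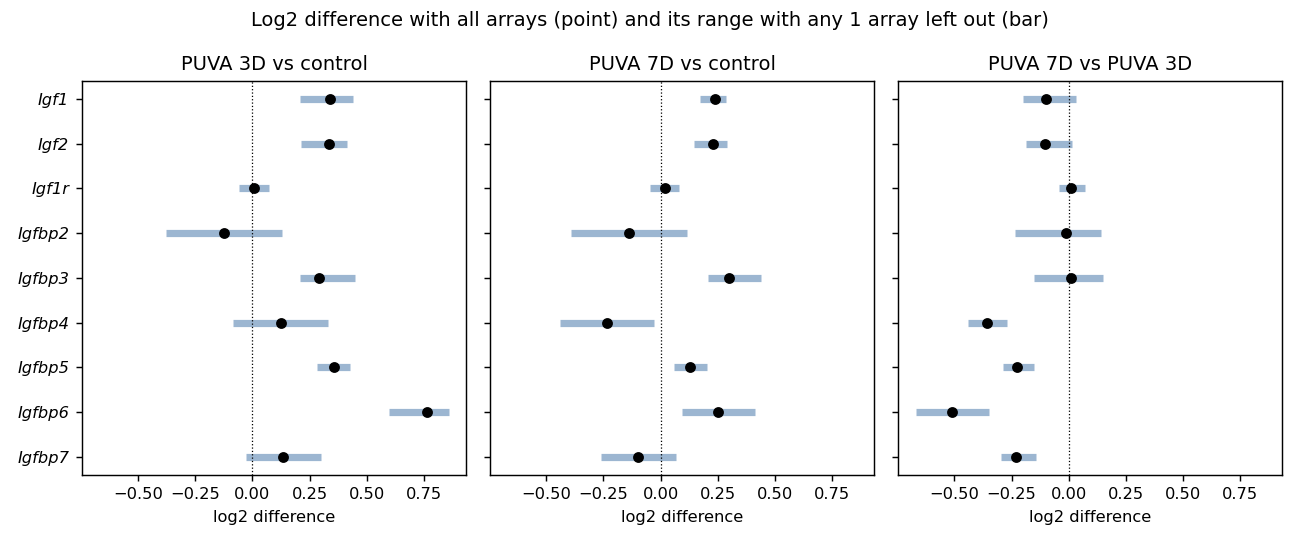
Log2 difference of the 9 genes with all arrays (points) and its lowest and highest value when any 1 of the 10 arrays was left out (bars). The bars of Igfbp5 and Igfbp6 stay on 1 side of 0 in all 3 comparisons, while those of Igf1r and Igfbp2 cross 0 in each.

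The 9 genes did not vary together as a block across arrays. Of the 3-day arrays, replicate 2 was highest for Igf1, Igfbp4 and Igfbp6 and lowest for Igf1r, Igfbp3 and Igfbp5, while replicate 3 was highest for Igfbp2, Igfbp5 and Igfbp7 and lowest for Igf1, Igf2 and Igfbp6. Correlations over the 10 arrays were computed for the 36 pairs of the 9 genes and for each gene with the mean of 12 marker lists. None of these 144 relations passed 0.05 after Benjamini-Hochberg adjustment of permutation p-values, for Pearson's r or Spearman's rho. By Pearson's r the strongest of the 36 pairs was Igf1 with Igfbp6, with r = 0.82 (permutation p = 0.00392, adjusted 0.0806) and rho = 0.75 (permutation p = 0.0172, adjusted 0.155). With the 2 arrays farthest in Igf1 left out r was 0.52, and over deviations from group means it was 0.81. By Spearman's rho the strongest pair was Igfbp4 with Igfbp7, with rho = 0.90 (permutation p = 0.00088, adjusted 0.0634) and r = 0.74 (permutation p = 0.0136, adjusted 0.163). For that pair r was 0.58 without the 2 arrays farthest in Igfbp4 and 0.595 over deviations from group means. Within the 3-day group it was 0.032 and within the 7-day group 0.93. Igfbp2 and Igfbp5 are next to each other among coding genes in RefSeq (assembly GRCm38.p6), with 0 coding genes between, and read their highest value on the same array, 3-day replicate 3. On 3-day replicate 1 Igfbp2 had its lowest value of all arrays, 6.45, whereas Igfbp5 lay above both controls there.

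The relations of single genes with marker lists ran in both directions, none of them past 0.05 after adjustment. Igfbp6 with the macrophage list mean had r = 0.88 (permutation p = 0.0012, adjusted 0.0761) and rho = 0.77 (permutation p = 0.0126, adjusted 0.144). Without the 2 arrays farthest in macrophage markers r was 0.75, and over deviations from group means 0.79. Igf1 had r = 0.85 with the same list (permutation p = 0.00317, adjusted 0.0761) and rho = 0.70 (permutation p = 0.029, adjusted 0.199), with r = 0.57 once the 2 farthest arrays were left out. Those were control replicate 1 and 3-day replicate 2, the lowest and the highest array for both Igf1 and the macrophage mean. Igfbp4 with the fibroblast mean had r = 0.86 (permutation p = 0.00164, adjusted 0.0761) and rho = 0.92 (permutation p = 0.00053, adjusted 0.0634), with r = 0.69 without the 2 farthest arrays. Igfbp2 with the pericyte and smooth muscle mean had r = 0.85 (permutation p = 0.00047, adjusted 0.0677) and rho = 0.86 (permutation p = 0.00329, adjusted 0.118), and r was 0.89 without the 2 farthest. On 3-day replicate 1, where Igfbp2 was lowest, that mean was also at its lowest, 9.24 against 9.46 to 9.75 elsewhere. Negative relations reached a similar size. Igfbp6 with the adipocyte mean had r = -0.84 (permutation p = 0.00256, adjusted 0.0761) and rho = -0.65 (permutation p = 0.0481, adjusted 0.22), with r = -0.53 without the 2 farthest arrays. Igfbp4 with the keratinocyte mean had r = -0.84 (permutation p = 0.00276, adjusted 0.0761) and rho = -0.79 (permutation p = 0.00888, adjusted 0.129), with r = -0.56 without the 2 farthest. All points of a relation share arrays and normalization, and the part of these cells in the gene values was not tested.

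**Figure D4:**
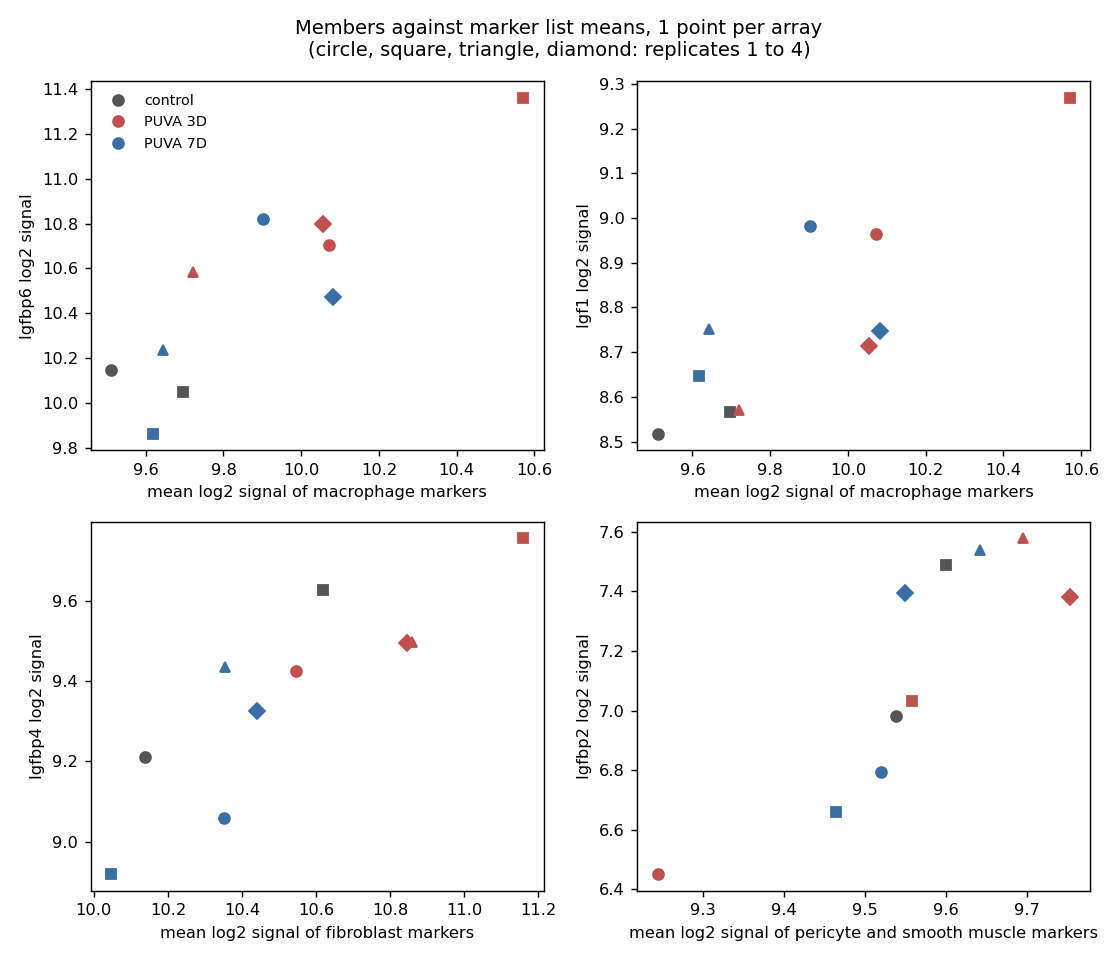
Log2 signal of Igfbp6, Igf1, Igfbp4 and Igfbp2 (vertical axes) against the mean log2 signal of a marker list (horizontal axes), 1 point per array, coloured by group. PUVA 3D replicate 2 (square) is the farthest point to the upper right in the macrophage panels and the fibroblast panel, and PUVA 3D replicate 1 (circle) the lowest point in the panel of Igfbp2.

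Genes with the most similar pattern over the 10 arrays were taken from 10520 genes of above-median signal, as the 3 with the highest Pearson r for each of the 6 genes with an SD above the upper quartile of all genes. With so many candidates and 10 arrays, high values of r are a description only. For Igfbp6 they were Adgrd1 (r = 0.99), Tpst2 and Sting1 (both r = 0.97), and for Igf1 they were Rgs7bp (r = 0.98), Eif4e2 and Rai2 (both r = 0.97). Igf2 was nearest to Dact1 (r = 0.97), Sfrp2 (r = 0.945) and Selenbp1 (r = 0.92). Igfbp2 was nearest to Lats2 (r = 0.95), Lrig1 and Fam168b (both r = 0.94), Igfbp3 to Plxdc2 (r = 0.96), C1qtnf9 (r = 0.93) and Rnf217 (r = 0.92), and Igfbp4 to Ldlrad4, P3h3 (both r = 0.95) and Rcbtb1 (r = 0.94).

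Other genes of the pathway were taken from 6 lists with 90 entries, of which 78 were measured under 1 symbol. H19, the imprinted neighbour of Igf2, and Igf2bp1 were not analysed here. In the 3-day group against control 7 of the 78 were higher, against 5.67% of all genes, and 2 lower, against 4.07%, at an unadjusted p under 0.05, with a median log2 difference of 0.022. In the 7-day group 3 were higher, against 3.21% of all genes, and 0 lower, against 2.68%. Between the PUVA groups 4 were higher at 7 days, against 5.33% of all genes, and 9 lower, against 4.43%. None passed after adjustment in limma in any comparison. Without control replicate 1 the first count was 4, and without control replicate 2 the count of higher genes in the 7-day group was 1. The count of lower genes was 0 at 3 days without 3-day replicate 2 and 3 at 7 days without control replicate 1, and 7 were higher between the PUVA groups without 3-day replicate 1.

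The list of proteases and their inhibitors held the pathway gene with the smallest p both against control at 3 days and between the PUVA groups. Of its 13 measured genes 2 were higher at 3 days at an unadjusted p under 0.05, against 5.67% of all genes, and 0 lower, against 4.07%. At 7 days against control 2 were higher, against 3.21%, and 0 lower, against 2.68%. Between the PUVA groups 0 were higher at 7 days, against 5.33%, and 2 lower, against 4.43%. Htra3, a secreted serine protease, read 8.89 and 8.87 on the controls, 9.49, 9.49, 9.64 and 9.47 on the 3-day arrays and 8.99, 8.77, 9.11 and 9.16 on the 7-day arrays. The 3-day arrays lay above all others, with a log2 difference of 0.64 ± 0.11 (SE) from control (adjusted p = 0.117 in limma). From the 3-day to the 7-day group it was -0.51 ± 0.090 (SE), with an adjusted p of 0.159 in limma. Prss23, another secreted serine protease, lay higher in both groups, by 0.39 ± 0.14 at 3 days and 0.41 ± 0.14 (SE) at 7 days, with all 8 PUVA arrays above both controls and adjusted p of 0.426 and 0.763 in limma. Adam12, a metalloprotease that cuts binding proteins, had -0.82 ± 0.30 (SE) between the PUVA groups, where 3-day replicates 2 and 3 were high at 7.80 and 8.25, and without replicate 3 it was -0.55. Pappa, which encodes PAPP-A, ranged from 6.47 to 7.48 over the arrays, and its inhibitors Stc1 and Stc2 from 6.10 to 7.90 and from 6.39 to 6.82. Stc2 had 0.23 ± 0.095 (SE) in the 7-day group against control, with an adjusted p of 0.824 in limma, and this was 0.36 without control replicate 1 and 0.10 without control replicate 2.

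**Figure D5:**
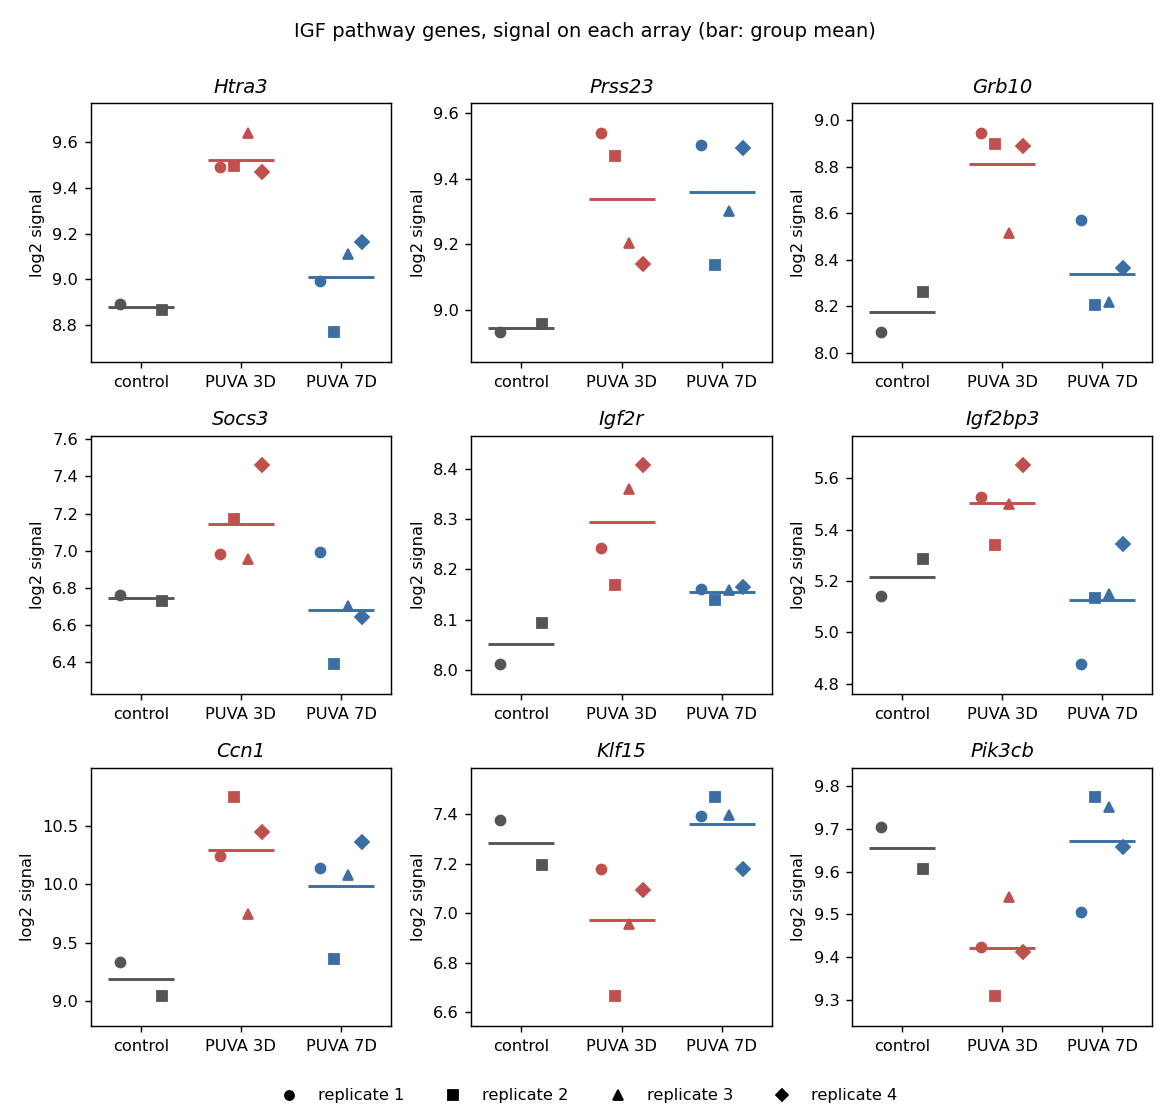
Signal of 9 other IGF pathway genes on each of the 10 arrays, on the log2 scale (vertical axes, scaled per gene), by group (horizontal axes). Points are arrays, shapes give the replicate number and bars group means. The PUVA 3D arrays of Htra3 lie above all other arrays, and those of Grb10 above both controls.

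Counts at an unadjusted p under 0.05 were small among the 8 measured receptors and carriers other than the 9 genes. In the 3-day group against control 1 was higher, against 5.67% of all genes, and 0 lower, against 4.07%. In the 7-day group against control 0 were higher, against 3.21%, and 0 lower, against 2.68%. Between the PUVA groups 0 were higher at 7 days, against 5.33%, and 1 lower, against 4.43%. With 8 genes, such counts are not read as a result about the list. Igf2r, which clears IGF-II from the cell surface, read 8.01 and 8.09 on the controls, 8.24, 8.17, 8.36 and 8.41 on the 3-day arrays and 8.14 to 8.16 on the 7-day arrays. The 3 groups did not overlap, although the 3-day difference from control was small, at 0.24 ± 0.084 (SE), with an adjusted p of 0.416 in limma. The insulin receptor gene Insr ranged from 8.86 to 8.99 over all arrays. Igfbp1 ranged from 4.03 to 4.74, close to the lower quartile of array signals, and Igfals, the gene of the acid-labile subunit that binds IGF complexes in blood, from 5.58 to 5.92. Kazald1, a secreted protein related to binding proteins, had -0.24 ± 0.11 (SE) between the PUVA groups, with an adjusted p of 0.499 in limma.

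Of 29 measured genes of receptor signalling, 2 were higher in the 3-day group against control at an unadjusted p under 0.05, against 5.67% of all genes, and 1 was lower, against 4.07%, so that the total was near the share over all genes. Grb10, an imprinted adaptor that dampens insulin and IGF-I receptor signalling, read 8.09 and 8.26 on the controls, 8.94, 8.90, 8.52 and 8.89 on the 3-day arrays and 8.57, 8.21, 8.22 and 8.36 on the 7-day arrays. Its 3-day arrays lay above both controls, while 7-day replicate 1 lay above 3-day replicate 3. The log2 difference was 0.63 ± 0.14 (SE) from control and -0.47 ± 0.11 (SE) between the PUVA groups, with adjusted p of 0.223 and 0.266 in limma. Socs3, a feedback inhibitor of cytokine signalling, had 0.40 ± 0.17 and -0.46 ± 0.14 (SE) in the same comparisons, with adjusted p of 0.50 and 0.357 in limma. Pik3cb, a catalytic subunit of PI3K, ran the other way, at -0.23 ± 0.099 and 0.25 ± 0.080 (SE). In the 7-day group against control 0 of the 29 had an unadjusted p under 0.05, against 3.21% of all genes higher and 2.68% lower.

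FOXO factors, which AKT holds out of the nucleus, and their targets numbered 15 measured genes. Klf15 had a log2 difference of -0.31 ± 0.14 (SE) in the 3-day group against control. It was the 1 gene of the 15 with an unadjusted p under 0.05 there, against 4.07% of all genes lower and 5.67% higher. Between the PUVA groups 3 of the 15 were higher at 7 days at that threshold, against 5.33% of all genes, and 0 lower, against 4.43%. The 3 were Klf15 by 0.39 ± 0.11, the repressor gene Bcl6 by 0.36 ± 0.11 and the ubiquitin ligase gene Fbxo32 by 0.39 ± 0.16 (SE). That of Fbxo32 was 0.22 without 3-day replicate 2. In the order named, the adjusted p in limma were 0.346, 0.385 and 0.484. Igf2bp3, an RNA-binding protein named for its binding of Igf2 mRNA, stood at 0.29 ± 0.13 (SE) in the 3-day group against control and -0.38 ± 0.10 (SE) between the PUVA groups, with adjusted p of 0.503 and 0.312 in limma. In both comparisons it was the 1 gene with an unadjusted p under 0.05 among the 7 measured genes of its list. The shares over all genes were 5.67% higher and 4.43% lower.

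CCN proteins share a domain with the binding proteins. All 6 of their genes lay above 0 in the 3-day group against control, where 11225 of 22180 genes did. Only 1 of the 6 had an unadjusted p under 0.05, against 5.67% of all genes higher. Ccn6 (0.0091 ± 0.081) and Ccn2 (0.074 ± 0.33, SE) lay close to 0. Ccn1, a matricellular protein and early response gene, read 9.34 and 9.04 on the controls, 10.24, 10.74, 9.75 and 10.45 on the 3-day arrays and 10.14, 9.36, 10.08 and 10.36 on the 7-day arrays. All 8 PUVA arrays lay above both controls. Its log2 differences were 1.10 ± 0.29 at 3 days and 0.79 ± 0.29 (SE) at 7 days, with adjusted p of 0.303 and 0.784 in limma. Ccn4 and Ccn5 had -0.48 ± 0.15 and -0.53 ± 0.21 (SE) between the PUVA groups, with adjusted p of 0.37 and 0.479 in limma. They were the 2 of the 6 lower there at an unadjusted p under 0.05, against 4.43% of all genes, and 0 were higher, against 5.33%.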

How the data were processed

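The deposited values, for 41345 probe sets on each array, were read as log2 signals normalized by the authors. Their range gave the log base, while the authors' software, background correction and normalization method were not given in the sources used here. Per the labels, RNA came from a miRNeasy extraction with DNase treatment and was labelled by the Affymetrix WT PLUS protocol, and no batch is named. Arrays carry no read depth, so their number, above all the 2 controls, limits the precision.

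The platform annotation gave 1 symbol to 23521 probe sets, several to 1814 and none to 16010. For the 1082 genes with more than 1 probe set, that with the highest mean was used. Group means of all 10 arrays were fitted with limma 3.58.1 in R 4.3.3 (two-sided, 7 residual and 3.514 prior degrees of freedom), with Benjamini-Hochberg adjustment over 22180 genes. The limma fit was tested on simulated data with known differences, and the other steps were not. Correlations used 100000 permutations, two-sided.

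The 9 genes and all lists were chosen with earlier results of these data known. The rule for naming took, for each pathway list and comparison, up to 3 genes with the smallest limma p among those with an unadjusted p under 0.05, and Insr, Igf2r, Igfbp1, Igfals, Pappa, Stc1, Stc2 and H19. The alternatives left out each array in turn, left out the 30% of genes with the lowest mean, averaged the probe sets of a gene, quantile-normalized or median-centred the arrays, used array weights, used eBayes with a trend and robust prior, or fitted only the groups compared.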

Additional observations from a re-analysis of the deposited data

Results flagged for a closer look

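Among 60 sets of 4 PUVA arrays (30 genes in 2 groups), 2 held an array far from the others by Dixon's criterion, which chance alone meets in about 5% of sets. Htra3 read 9.64 on PUVA 3D replicate 3, against 9.47 to 9.49 on the other 3-day arrays. Grb10 read 8.52 on the same array, against 8.89 to 8.94 on the others. None of the 9 IGF and binding protein genes met the criterion in either PUVA group.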

How the results depend on the processing

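In 17 alternatives the 27 log2 differences of the 9 genes gave 459 values, of which 0 passed an adjusted p of 0.05 in limma (lowest adjusted p 0.273) and 29 had the other sign. The 24 differences of pathway genes named for a comparison gave 408 values, with 0 past the threshold (lowest adjusted p 0.0874) and 0 of the other sign. These 24 were named for an unadjusted p under 0.05 in limma on the same arrays, which by itself favours a stable sign. The 9 genes were not picked by that rule, so the counts of values with the other sign are not compared. Alternatives for counts over the 9 genes and over pathway genes, and for the differences of single pathway genes, were chosen after seeing the data. Quantile normalization turned Igf1r at 3 days against control to -0.0023 and Igfbp2 between the PUVA groups to 0.0023, and array weights turned Igf1r and Igfbp3 between the PUVA groups to -0.000887 and -0.012. Leaving out 1 array at a time, the 3-day difference from control ranged from -0.057 to 0.071 for Igf1r, -0.38 to 0.13 for Igfbp2, -0.083 to 0.33 for Igfbp4 and -0.030 to 0.30 for Igfbp7. The 7-day difference from control ranged from -0.047 to 0.081 for Igf1r, -0.39 to 0.12 for Igfbp2 and -0.26 to 0.066 for Igfbp7. Between the PUVA groups the range was -0.20 to 0.032 for Igf1, -0.19 to 0.014 for Igf2, -0.044 to 0.069 for Igf1r, -0.23 to 0.14 for Igfbp2 and -0.15 to 0.15 for Igfbp3. Genes past the adjusted threshold numbered 3 (3 days against control) and 6 (between the PUVA groups) with array weights, and 1 in the latter comparison without the lowest 30% of genes or with only the groups compared. Leaving out 1 array, they ranged from 1 to 182, 0 to 217 and 0 to 10 in the 3 comparisons, with 182 and 217 without control replicate 1, and none of the 9 among them. With arrays left out in turn, the 9 genes at an unadjusted p under 0.05 ranged from 1 to 4 higher at 3 days, 0 to 1 higher and 0 to 1 lower at 7 days, and 0 to 4 lower between the PUVA groups. Those wholly above the controls ranged from 4 to 6 at 3 days and from 2 to 4 at 7 days, with no share over all genes computed for these settings. Pathway genes ranged from 4 to 8 higher and 0 to 2 lower at 3 days, 1 to 4 higher and 0 to 3 lower at 7 days, and 4 to 7 higher and 6 to 9 lower between the PUVA groups. The lower count at 3 days was 1 with quantile normalization, centring, array weights or only the groups compared. Causes of these shifts were not tested. A fit with a single control takes its spread from the PUVA groups. No paired analysis was possible because the labels give no replicate numbers shared between groups.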
